A study of Oncorhynchus kisutch with 82 samples.

Results

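On 14 of the 82 gill arrays of juvenile coho salmon, the log ratios were spread far more widely than on the rest, with a standard deviation (SD) across the array above 1.3. The 200 probes described here are those that separated such wide arrays most strongly from the other arrays in 2 groups of fish. Within the river smolts of 2008, the median of the 7 wide arrays minus that of the 8 others was taken for each probe, and within the ocean summer fish of 2009 the median of 5 wide arrays minus that of 10 others. Probes with values on at least 50% of each set and the same sign in both groups were ranked by the smaller of their 2 absolute differences, and the first 200 were kept. Of 43236 probes, 14792 had enough values and 11086 of these had the same sign in both groups. The members were thus selected on the log ratios of these 2 groups, whose values are given below as a description with no test. All tests use the other 52 fish.

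The gill is the organ in which a fish exchanges gas and ions with the water, and its epithelium includes ionocytes, cells packed with mitochondria that move salt. In fresh water ionocytes take salt up, and in sea water they secrete it. During smoltification, the change that prepares a young salmon for the sea, the gill gains sodium pump activity and the transport machinery of the marine type. The files give probes by array ID only, so no member can be tied to these functions here, and gill markers could not be checked. No sequence is shown for the same reason.

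RNA from 1 fish and a pool of gill RNA were hybridised together on each array, and a "higher" value below is a higher deposited log ratio, taken as log2. The direction of the ratio is not stated, so a higher value does not settle whether the fish held more RNA than the pool. The smolts of 2008 came from the capture area labelled chilliwack, 8 of hatchery and 7 of wild origin. The smolts of 2009 were 8 hatchery fish from the area labelled chehalis and 4 wild fish from the area labelled salmon. At sea there were 4 wild spring fish of 2009, 7 summer fish of 2008 (2 hatchery and 5 wild), and 15 of 2009 (7 hatchery and 8 wild). The fall gave 15 fish in 2008 (6 hatchery and 9 wild) and 12 in 2009 (7 hatchery and 5 wild), and 2 hatchery fish were from the winter of 2009. By the region label the smolts of 2008 were Chilliwack_R and those of 2009 Fraser. Fish at sea were mostly Fraser or Chilliwack_R, with a few S_Main fish, and both winter fish were Puget_Sound. For 1 fall fish of 2008 the region was not given. No treatment or age is labelled.

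An array gave 12606 to 31972 probe values, and its SD ranged from 0.636 to 1.88. The wide arrays lay on 13 of the 31 slides. They gave a median of 17778 values, against 24085.5 on the 68 others. Of the values on a wide array a median of 9.99% exceeded 2 and 7.74% fell below -2, against 0.264% and 2.73% on the others. The wide arrays were not alike in this. The medians were 9.74% and 3.43% in the 7 wide smolts, against 0.863% and 2.23% in the other smolts of 2008. In the 5 wide summer fish they were 13.4% and 11.0%, against 0.101% and 2.13% in the others of that group. The negative control spot DarkCorner had a log ratio of 0.16 to 2.76 on the wide arrays and of -2.13 to 1.23 on the others. The other corner control, GE_BrightCorner, was at 0.75 to 4.95 in the 7 wide smolts but at -1.08 to -0.37 in the 5 wide summer fish. Whether control spots, missing values or RNA quality have a part in the values of the members was not tested, beyond the fit with DarkCorner given below.

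The wide arrays were unevenly placed among the labels. Among the smolts of 2008 they were 5 of 8 hatchery and 2 of 7 wild fish, with fork lengths of 12.1 to 13.7 cm against 5 to 14.1 cm in the others. In the summer of 2009 they were 5 of the 7 fish from the area labelled mid_SoG, 0 of 6 from north_SoG and 0 of 2 from south_SoG, and they were 2 of 7 hatchery and 3 of 8 wild fish. By array position 1 to 4, the wide smolts were 2 of 5, 1 of 4, 1 of 2 and 3 of 4. The wide summer fish were 0 of 1, 3 of 4, 1 of 4 and 1 of 6, and by sex 4 of 9 F and 1 of 6 M. Outside these groups only 2 arrays were wide, those of fall fish 1012 of 2008 and 3020 of 2009. Fish 1012 was the only fall fish of 2008 from the area labelled WCVI. Its fork length was 32.8 cm, against 21.5 to 28.2 cm in the others of its group. Fish 3020 was 1 of 9 from south_SoG.

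The set was one-sided, to a degree that depended on the processing and on the group ranked (see the last section). Of the first 200 probes ranked by the smolts alone 199 were higher, and of those ranked by the summer fish alone 14. Of the 200 members 93.5% were higher on the wide arrays and 13 were lower, whereas 49.1% of the 11086 probes with the same sign were higher. Among the higher members the median difference was 2.59 in the smolts (2.06 to 5.00) and 2.73 in the summer fish (2.06 to 4.15). The 13 lower members had a median difference of -2.22 in the smolts (-2.50 to -2.07) and -4.10 in the summer fish (-7.16 to -2.26), and 11 of them differed more in the summer fish. Over all 14792 probes the 2 differences had a Pearson r of 0.584 and a Spearman rho of 0.635, as a description across probes that share the same arrays.

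C087R009 ranked first. It read 0.46, 4.57 and 6.20 (lowest, median and highest) in the 7 wide smolts, against 0.26, 0.64 and 4.69 in the 7 other smolts with a value. In the summer fish it was at 2.22, 4.19, 4.50 and 5.52 on the 4 wide arrays with a value and between -0.49 and 1.65 on 6 others. The groups did not overlap in the summer fish but did in the smolts, where 1 fish of the other set was as high as the wide ones and 1 wide fish was low.

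C122R054 was at 3.78, 4.55 and 7.57 in the wide smolts and at -0.79, 0.68 and 7.05 in 6 others. In the wide summer fish it read 0.93, 1.74, 3.41, 3.46 and 4.34, all above the 10 others, which ranged from -1.20 to 0.22. C013R061 was at 2.92, 3.59 and 6.09 in the wide smolts and at -0.34, 0.09 and 6.52 in 7 others. In the summer fish its wide values of 1.98, 2.44, 3.63, 3.66 and 4.41 again lay above those of all 9 others with a value, the highest of which was -0.15. For these probes a single smolt of the other set carried the overlap.

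The next 3 higher members behaved alike. C041R085 had medians of 4.52 and 0.27 in wide and other smolts and of 3.11 and -0.39 in wide and other summer fish. C065R089 had medians of 4.01 and 0.55 in the smolts and of 3.26 and -0.16 in the summer fish. C167R114, with values on only 5 of the 8 other smolts and 6 of the 10 other summer fish, had medians of 4.55 and 1.18, then of 4.94 and 1.29.

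The first lower member, C235R113, was at -2.54, -2.25 and -0.06 in the wide smolts and at -1.35, 0.26 and 1.92 in the 8 others. In the wide summer fish it read -5.37, -5.03, -4.91, -2.32 and -1.66, below all 10 others, which ranged from -1.16 to 0.55. C199R135 was at -1.81, -1.31 and 0.20 in the wide smolts and at 0.20, 1.16 and 1.95 in the others. Its wide summer values of -2.39, -2.39, -1.96, -1.92 and -1.65 lay below the range of -0.52 to 1.91 in the others. In the smolts, C235R113 overlapped between wide and other arrays, and C199R135 met at 0.20. C210R125 did not overlap in either group: its highest wide values were -0.82 in the smolts and -1.87 in the summer fish, and the lowest others were -0.09 and -0.33.

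The remaining 3 of the first 6 lower members overlapped in at least 1 group. C015R068 had medians of -1.18 and 1.23 in wide and other smolts and of -2.18 and 0.13 in the summer fish. C030R042 had medians of -0.74 and 1.54, then of -2.64 and -0.31, and 1 summer fish of the other set fell to -2.92. C099R032 had medians of -2.22 and 0.27, then of -2.28 and -0.02, and 1 smolt of the other set was at -2.55.

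The overlap in the smolts came largely from fish 1, a hatchery smolt with an array SD of 1.19, just under the limit. Its median over the members, each turned to the sign of the rule, was 3.55, the second highest of all 82 fish. Of 186 higher members with a value there, 106 were at or above the median of the wide smolts. The lower members were mixed: their median in this fish was 0.12, against -1.81 as the median over the wide smolts, while C030R042 was at -0.89 there, below its wide median, and C015R068 at -0.55, the lowest of the 8 other smolts. Against the other smolts of its set, 92.5% of its members had the sign of the rule, but 49.5% of all 11065 probes of the same sign with a value did. The control spot GE_BrightCorner was at 3.53 in this fish.

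Wide and other arrays did not overlap in both groups for 10 members, and for 99 when fish 1 was left out. In the smolts alone this held for 11 members, or 132 without fish 1, and in the summer fish for 154. These counts describe the arrays on which the members were selected. The share over all probes was not computed, so they show no property beyond the selection. Counting fish 1 with the wide arrays would replace 33 of the 200 members. Near the limit of the list, C216R158 and C077R066 were the last inside, with a smaller difference of 2.06 each, and C061R111 and C263R016 were the first outside, at 2.06 and 2.05, so the limit marks no gap.

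If the numbers in a probe name are its column and row, they fell in columns 1 to 265 of 266 and rows 1 to 170 of 170, and 0 members had another in a neighbouring spot. The first, middle and last parts of the columns held 38.0%, 33.5% and 28.5% of the members, against 34.4%, 34.5% and 31.1% of the 14792 probes. The first, middle and last parts of the rows held 32.0%, 41.0% and 27.0% of the members, against 34.9%, 34.2% and 30.9% of the probes, so the middle rows held the most. A member had a value on 50 to 82 arrays, with a median of 77, and 38 members had one on every array.

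Over the 52 fish outside the rule, the members' levels tended to follow the spread of the array again, though not in every group. The median over the members, turned to the sign of the rule, ran from -0.86 to 2.37 with a middle value of -0.30. It was highest in fall fish 3020, the widest array of these fish at an SD of 1.68. In that fish C087R009 was at 4.55, C122R054 at 2.83, C013R061 at 2.78 and C210R125 at -2.90, each at the extreme of the fall fish of 2009. Against the rest of its group, 189 of 190 members with a value had the sign of the rule and 186 differed by more than 1. Of all probes of the same sign, 92.4% had the sign of the rule. Their median difference, turned to that sign, was 1.18, beside 2.34 in the members. The share of all these probes beyond 1 was not computed. The summer fish of 2008 ran the other way. Fish 579, 502 and 576 had the highest SDs of that group, at 0.83, 0.91 and 0.95. Their medians over the members were its lowest, at -0.71, -0.70 and -0.86. The fall fish of 2008 were mixed: fish 796, at an SD of 1.02, had the lowest median, -0.76, and fish 797, at 1.08, was at -0.44. Among the smolts of 2009, fish 1439 had both the highest SD, 1.06, and the highest median, 0.52, but the lowest median, -0.77, was in fish 1615 at an SD of 0.87.

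Fall fish 1012, the other wide array, was milder. Its SD was 1.33 and its median over the members 0.61. The sign of the rule held for 193 of 200 members against the rest of its group, beside 80.1% of all probes of the same sign. Differences of more than 1 were seen in 117 members, and the share over all probes was not computed. The median turned difference was 1.12 in the members and 0.745 in all probes of the same sign. Fall fish 922 of 2008, at an SD of only 0.96, had a higher median over the members, 1.05, and the sign held for 190 of 200, beside 82.9%. Its lower members stayed near 0, with a median of -0.01.

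At the upper end, the negative control moved with the members. In these 52 fish, the 8 with the highest DarkCorner log ratio, 0.66 to 1.23, were also the 8 with the highest median over the members. They were fall fish 836, 922 and 1012 of 2008 and 2623, 3020, 3029 and 3166 of 2009, and smolt 1439 of 2009. The next fish by DarkCorner was at 0.48. The medians over the members left no such gap, at 0.296 in the last of the 8 and 0.287 in the next fish. That fish, summer fish 552 of 2008, had a DarkCorner log ratio of -0.57. The match therefore depends on the limit of 8.

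The slope of each probe on array SD was fitted over the 52 fish with limma, with season and year as groups and origin as a covariate, with Benjamini-Hochberg adjustment over 24467 probes. All 200 members could be tested, and all 200 slopes had the sign of the rule. The matching share over the other probes is not given, here or below. Members moved with one another, so their signs are not separate observations. At an adjusted p below 0.05, 163 members had a positive slope and 12 a negative one, together 175 (87.5%), and 0 were called against the rule. Calls were frequent on the whole array, at 56.3% of all probes (31.4% positive and 24.9% negative), which is the level to read the members against. With an array SD computed without the members, 176 (88%) were called, beside 13810 of 24467 probes. The median slope of the members, turned to the sign of the rule, was 2.42 log2 units per unit of SD, beside a median absolute slope of 1.21 over all probes.

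The largest slopes among called members were 5.26 ± 1.05 (SE, adjusted p = 9.39e-05 in limma, 39 fish) for C053R079 and 4.62 ± 0.97 (adjusted p = 0.000303 in limma, 28 fish) for C167R114. The steepest negative ones were -4.95 ± 0.62 (adjusted p = 1.95e-08 in limma, 52 fish) for C028R103 and -3.95 ± 0.62 (adjusted p = 1.44e-06 in limma, 52 fish) for C225R026. Of the first 6 higher and first 6 lower members 11 were called, with C099R032 at -1.31 ± 0.62 and an adjusted p of 0.0665 in limma. The slopes of the higher members ranged from 0.66 to 5.26 and those of the lower ones from -4.95 to -1.31.

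The calls rest in part on few fish. Without the 2 wide arrays 82 members (41.0%) were called, beside 30.6% of all probes, with a median turned slope of 1.76, and 193 of 200 slopes kept the sign of the rule. With the DarkCorner log ratio as a covariate 77 (38.5%) were called, beside 24.6%, with a median turned slope of 1.44 and 0 calls against the rule.

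Members also moved with one another. Over the 50 arrays outside the rule that were not wide, after subtracting each group's mean, the pairs of higher members had a median r of 0.498, and 97.2% of 17385 pairs were above 0. Pairs of lower members had a median r of 0.281, and a higher and a lower member had one of -0.349. Over all pairs of the 14792 probes the median was 0.0185. Those pairs mix probes that were higher and lower on the wide arrays, whereas the member pairs were sorted by direction. The value is therefore not a matched level for them. Pairs of other probes sorted by direction were not computed, so how far the members stand out was not tested. These values describe probes read on the same arrays and share their spread and missing values.

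Between wild river smolts and wild spring fish of 2009, the called members were lower in spring if the rule had them higher, and higher if it had them lower. In this comparison of 4 smolts with 4 spring fish, 74 of 200 members (37.0%) were called, 69 lower and 5 higher in spring, beside 28.3% of all 24881 probes (13.3% lower and 15% higher). All 69 lower calls were higher members and all 5 higher calls were lower members. Taken as spring minus smolts, each call ran against the sign of the rule. That sign is wide minus other arrays, and the spring arrays were the narrower ones here. The calls thus had the direction that a lower array SD had in the slopes. The higher members had a median of group means of 0.12 in the smolts and -0.63 in spring, and the lower members of 0.22 and 0.52.

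C122R054 was at 0.09, 0.13, 0.73 and 1.24 in the smolts and at -1.64, -1.34, -1.08 and -0.48 in spring. The groups did not overlap, and the difference was -1.68 ± 0.32 (SE, adjusted p = 0.00306 in limma). C202R020 was at -0.68, -0.56, -0.42 and -0.08 in the smolts and at -2.91, -1.90 and -1.77 in the 3 spring fish with a value, again without overlap, a difference of -1.76 ± 0.31 (adjusted p = 0.00247 in limma).

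In the other direction, C225R026 was at -1.60, -1.38, -1.36 and -0.40 in the smolts and between 0.40 and 1.57 in the 4 spring fish. It rose by 2.23 ± 0.33 (adjusted p = 0.000819 in limma). C128R104 was at -1.50, -0.85, -0.24 and -0.21 in the smolts and at 0.48, 0.67, 0.70 and 1.17 in spring, a rise of 1.46 ± 0.30 (adjusted p = 0.00481 in limma). The groups did not overlap in any of these 4 probes.

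Array SD did not overlap between these groups either, at 0.850 to 1.06 in the smolts and 0.636 to 0.793 in spring. The region label differed as well. All of these smolts were Fraser fish, while spring fish 2133 was S_Main, 2134 Chilliwack_R, and 2247 and 2248 Fraser. Season and array spread therefore cannot be told apart. Region was shared with the smolts by fish 2247 and 2248 only, and its part was not tested. With array SD as a covariate 3 members (1.5%) were called, beside 3.99% of all probes, and with array position 6 (3%), beside 4.86%. Leaving out spring fish 2134 left 43 calls among the 177 members still tested (24.3%), beside 21.3% of all probes. Leaving out fish 2247 left 43 of 199 (21.6%), beside 20%, and fish 2248 43 of 178 (24.2%), beside 22.3%. Leaving out smolt 1439 left 48 of 200 (24%), beside 22.6%.

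Between hatchery and wild smolts of 2009, the share of members called was near that of all probes. Of 196 members tested 21 (10.7%) were called, 17 lower and 4 higher in hatchery fish, beside 11.2% of all 23171 probes (5.58% lower and 5.6% higher). Of the 21, 19 ran against the sign of the rule, which is that of wide minus other arrays. Array SD was 0.687 to 0.920 in the hatchery smolts and 0.850 to 1.06 in the wild ones, so most hatchery arrays were narrower. The split into lower and higher was not stable. Without smolt 1435, 4 members were called lower and 3 higher in hatchery fish, beside 590 and 850 of 22933 probes. Without smolt 1439 it was 2 and 1, beside 328 and 376 of 22666. After quantile normalization of the arrays it was 6 and 4, beside 704 and 536 of 23171. Among the higher members tested, the median of group means was 0.11 in the wild and -0.28 in the hatchery smolts.

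C016R159 was at 1.52, 1.82, 1.96 and 2.51 in the wild smolts and between 0.24 and 1.09 in 6 hatchery smolts, which did not overlap, a difference of -1.45 ± 0.24 (SE, adjusted p = 0.00699 in limma). C037R096 went from 1.73 ± 0.66 (SD, n = 4) to 0.25 ± 0.67 (SD, n = 6; limma, adjusted p = 0.0270). C265R117 ran the other way, at -3.45, -3.44, -3.26 and -2.64 in the wild smolts and between -3.35 and 1.26 in 6 hatchery smolts, of which 1 lay with the wild fish. Its difference was 3.32 ± 0.72 (adjusted p = 0.0171 in limma), and the lower member C225R026 was higher by 1.93 ± 0.41 (adjusted p = 0.0132 in limma).

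Hatchery and wild smolts of 2009 came from different rivers, so origin and river cannot be told apart. The number called fell to 3 (1.53%) without wild smolt 1439, beside 3.11% of all probes, and to 7 (3.57%) without wild smolt 1435, beside 6.28%. With array SD as a covariate it was 0 in limma, beside 0.108% of all probes. In that fit 26 members (13.3%) had an unadjusted p below 0.05, beside 15.4% of all probes.

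Between river smolts and fall fish of 2009, 7 of 199 members (3.52%) were called, 4 higher and 3 lower in the fall, beside 3.46% of all 23258 probes (1.44% higher and 2.03% lower), a share near the background. C077R066 had a lowest, median and highest value of -0.60, 0.80 and 2.52 in 11 smolts and of 1.14, 2.20 and 3.69 in 12 fall fish. Its difference was 1.23 ± 0.34 (SE, adjusted p = 0.0448 in limma), with overlap. C113R143 went from -0.54 ± 0.47 (SD, n = 11) in the smolts to 0.66 ± 1.04 (SD, n = 11) in the fall (limma, adjusted p = 0.0471).

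The largest difference downward was in C028R103, at -0.61, 0.61 and 1.35 in 12 smolts and -5.04, -1.14 and 0.23 in 12 fall fish, which was lower by -2.23 ± 0.53 (SE, adjusted p = 0.0159 in limma). C030R042 was lower by -1.48 ± 0.29 (adjusted p = 0.00378 in limma). With array position as a covariate 21 members (10.55%) were called, all in the sign of the rule, beside 2.82% of all probes. With array SD as a covariate 18 (9.05%) were called, 17 of them against the sign of the rule, beside 6.57% of all probes. The direction of the members here therefore depends on whether the spread of the arrays is fitted.

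Year and the step from summer to fall gave 0 called members. Between fall fish of 2009 and 2008, 0 of 198 were called by limma, beside 0 of 23430 probes, and 56 members (28.3%) had an unadjusted p below 0.05, beside 23.5% of all probes. Of the 198 differences 186 had the sign of the rule, with a median turned difference of 0.56. The matching share over all probes was not computed, and members moved with one another, so these are not separate observations. The median was 0.28 with array position as a covariate, 0.31 with array SD and -0.24 with slide as a fixed block. With slide as a random block 41 members (20.7%) were called, beside 24% of all probes. The correlation within slides in that fit was negative, at -0.218, and with slide as a fixed block 0 members were called by limma. These calls are therefore not read as a year difference. Between fall and summer fish of 2008, 0 of 193 were called by limma, beside 0.0294% of 23849 probes. There 4 members (2.07%) had an unadjusted p below 0.05, beside 5.18% of all probes. The median turned difference was 0.09, and -0.02 without the wide array of fish 1012.

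In the 2 winter fish the median over the members was -0.70 and -0.52, and in the 4 spring fish it lay between -0.67 and -0.42, so these 6 fish were all below the middle value of the 52. In the summer fish of 2008 it ran from -0.86 to 0.29, with fish 552 the highest. The lower member C199R135 had a median of 0.86 in spring, 1.11 in the summer of 2008 and 0.92 in the fall of 2008, and it was at -0.69 in fish 1012 and -2.35 in fish 3020.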

How the data were processed

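Per the labels, gill RNA of each fish was amplified and hybridised against a gill pool in another dye, in 1 orientation on all 82 arrays. The deposited values are log ratios per spot, taken as log2 since the base is not stated. How the arrays were scanned, background corrected and normalized is not stated (not given in the sources used here). The 60 control spots were left out of ranking and fits. Of the probe values 45.6% were empty, and none was filled in.

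The members and lists were chosen with earlier results of these data known. Differences of medians were ranked in Python 3.11.15 with pandas 2.3.3 and numpy 2.4.6, and probes were fitted with limma 3.58.1 in R 4.3.3 (lmFit, eBayes, two-sided) over all probes with values on 50% or more of the fish (2 as a minimum) in each group (for the slope, of all arrays). Benjamini-Hochberg adjusted p-values below 0.05 were calls. The fits were tested on simulated data, with noise drawn separately for each probe and no difference in spread between arrays. That does not cover probes that move together or arrays of unequal spread, as seen here. P-values measure the spread between fish.

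Named probes are the first 6 higher and first 6 lower members, the 2 on each side of the limit, and per comparison the 2 called members with the largest difference in each direction. Alternatives covered scaling, the series table, missing values, slide, array position, the variance prior, covariates and single fish. Covariates of array SD and DarkCorner, leaving out fish 3020, 1012 or 922, and counting fish 1 as wide were chosen after seeing the data. For 1 fish the labels name 2 slides, and that of the array position was used.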

Additional observations from a re-analysis of the deposited data

Results flagged for a closer look

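The median over the members and the first 6 higher and first 6 lower members were tested for a fish far from the others in 4 sets of 4 to 10 fish, 44 values in all. By chance about 1 in 20 such sets would be picked out, and 3 were. In the summer fish of 2008, C199R135 was at 0.30 in fish 552 and between 1.06 and 1.52 in the 6 others. In the hatchery smolts of 2009, C030R042 was at -1.08 in fish 1621, where the others lay between 0.19 and 0.67. In the same smolts, C122R054 was at -1.65 in fish 1615 and between -0.75 and -0.27 in the others. The cause was not tested.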

How the results depend on the processing

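The list itself depended on the processing. Of the 200 members, 117 remained with an array SD limit of 1.4, 56 with arrays divided by their SD and 40 after quantile normalization. When every array of the 2 groups of the rule had to have a value, 65 remained. These were all the members that met this demand, so that count was fixed by the filter. In the same order, 190, 199, 164 and 123 of the 200 probes of those lists were higher on the wide arrays. Ranking by the smolts alone shared 67 members (of that list, 199 were higher) and by the summer fish alone 1 (of that list, 14 were higher). The slope kept 41 calls among 46 members with a value on every array (fewer members tested), beside 8112 of 12899 probes. It kept 82 without the wide arrays and 77 with DarkCorner, beside 30.6% and 24.6% of all probes. For 2009 against 2008, slide as a random block gave 41 calls (20.7%), beside 24% of all probes, with a negative correlation within slides. For fall against smolts, the count was 3 of 84 with a value on every array, beside 804 of 14769 probes. It was 12 (6.03%) with slide as a random block, beside 1023 of 23258. Slide as a fixed block gave 0 in limma, beside 0 of 22690. In that fit 11 members (5.53%) had an unadjusted p below 0.05, beside 3.82% of all probes. Array position gave 21 (10.55%), beside 2.82%, and array SD 18 (9.05%), beside 6.57%. Hatchery fish alone gave 2 of 194, beside 727 of 22228. For hatchery against wild smolts it was 10 (5.10%) after quantile normalization, beside 1240 of 23171 probes. It was 8 of 91 with a value on every array, beside 1120 of 15948. Array position gave 11 (5.61%), beside 1478 of 23171, and array SD 0, beside 0.108%. With 1 wild smolt left out it ran from 3 (without 1439, beside 704 of 22666) to 17 (without 1442, beside 1737 of 23010). For spring against smolts it was 35 of 104 with a value on every array, beside 4744 of 16817 probes. Array position gave 6 (3%), beside 4.86%, and array SD 3 (1.5%), beside 3.99%. With 1 fish left out it ran from 43 (the shares are given above) to 93 (46.5%, without smolt 1442, beside 6867 of 24524). The cause was not tested. The other 65 counts stayed within 1.5 times of the reported ones. Many of these were 0 against 0, for 2009 against 2008 and for fall against summer, where a count hides changes in the values. For 2009 against 2008, the median turned difference went from 0.56 to -0.24 with slide as a fixed block. Fits of the series table gave the same counts and medians as the main fits, so they add no separate check. None of the 228 values of single named probes changed sign, and 28 lost their call. These probes were picked as the called members with the largest differences in the main fits, so a kept sign says little about the others. The median turned difference of the members did change sign for fall against smolts, from 0.41 to -0.23 with array SD as a covariate. Slide as a random or fixed block could not be estimated for hatchery against wild smolts or for spring against smolts, and was not run there. No paired analysis was possible because fish numbers are not shared between groups. Missing values leave members such as C087R009 with few fish, and the number of fish limits every comparison.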
